A study of Mus musculus with 36 samples.

Results

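The subunits of respiratory complex I were followed in left ventricles of mice in which a MAP kinase pathway had been switched on in heart muscle cells. Members are the genes whose symbol starts with Ndufa, Ndufb, Ndufc, Ndufs or Ndufv, apart from the assembly factors named Ndufaf, each read by the brightest of the probe sets that name that gene alone. There were 36 such genes, with 78 probe sets, among 18193 genes named on the array. All 36 lay in the upper 60% of probe sets by mean log2 value over the 36 arrays, as did 12626 genes in all, which were tested together. Another 10 probe sets carry a member name beside a second symbol and were not used for it.

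Gene expression was read with 1 Affymetrix array per RNA sample in 36 samples of mice on a C57 black background. HRas-v12, an always active Ras, had 2 female and 3 male arrays at the early time and 3 of each sex at the late time. MKK3bE, an active kinase upstream of p38, had 2 female arrays early, and 2 female and 3 male arrays late. MKK7D, an active kinase upstream of JNK, had 3 female arrays at each time. Each transgene is floxed, stands behind the alpha myosin heavy chain promoter of heart muscle cells, and was combined with Mer-Cre-Mer, a tamoxifen-activated Cre recombinase under the same promoter. Littermates without transgenes served as controls, 3 females and 3 males with no time in their labels for HRas-v12 and MKK3bE, and 3 females per time for MKK7D. Controls carry neither transgene nor Cre, but they received tamoxifen as well: daily doses of 20 mg/kg for 3 days, started at an age of 12 weeks. Early means 4 to 7 days after the first dose and late 2 to 4 weeks. Nothing in the labels says that replicates came from separate animals, and a p-value then covers the spread between arrays and no more.

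Complex I takes electrons from NADH, passes them through a flavin and a chain of iron-sulfur clusters to ubiquinone, and pumps protons across the inner mitochondrial membrane. Core subunits carry the electrons or move the protons, and the proton-moving ones are encoded in mitochondrial DNA and were not measured here. The accessory subunits, all nuclear genes, surround the core and are needed to build and hold the enzyme. Heart muscle is packed with mitochondria and lives mainly on oxidative metabolism. The members held 6 core subunits (Ndufs1, Ndufs3, Ndufs7, Ndufs8, Ndufv1 and Ndufv2), 28 accessory subunits, among them Ndufab1, the mitochondrial acyl carrier protein. Ndufa4, now known as a subunit of complex IV, and its relative Ndufa4l2 are members by name only.

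Nuclear respiratory factor 1 (NRF1) and YY1 are transcription factors known for sites in promoters of nuclear respiratory genes. Promoters of 32 members were found in RefSeq sequence of build GRCm38.p6, from 250 bases before to 50 bases after the gene start, and both strands were searched. The NRF1 core, GCGCA and GCGC with any single base between them, stood in 5 of 32 (15.6%), those of Ndufa5, Ndufa6, Ndufa8, Ndufb4 and Ndufs5, against 5.19% of 27025 promoters of all genes. The YY1 core AAGATGGC stood in 6 of 32 (18.8%), those of Ndufa3, Ndufa9, Ndufb8, Ndufc1, Ndufs4 and Ndufs7, against 3.19% of all promoters. The ETS core CCGGAAGT was in that of Ndufs3 (3.1%, against 4.31% of all), and TNAAGGTCA, the core of estrogen-related receptors, in that of Ndufb4 (3.1%, against 1.43% of all). Such a match is a description of letters, not of a bound site. The promoters of Ndufa8 (chr2:36049289-36049588, minus strand), Ndufs7 (chr10:80249199-80249498, plus strand) and Ndufs5 (chr4:123718137-123718436, minus strand) are shown because these genes carry the lowering and the largest departure described further on. Capitals mark the NRF1 core in Ndufa8 and Ndufs5, and the YY1 core in Ndufs7.
Ndufa8: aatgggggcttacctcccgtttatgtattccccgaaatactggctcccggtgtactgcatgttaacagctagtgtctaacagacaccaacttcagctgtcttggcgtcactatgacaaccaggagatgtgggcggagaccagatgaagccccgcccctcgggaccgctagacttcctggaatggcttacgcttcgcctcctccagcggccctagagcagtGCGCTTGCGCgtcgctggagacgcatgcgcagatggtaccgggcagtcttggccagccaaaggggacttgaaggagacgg
Ndufs7: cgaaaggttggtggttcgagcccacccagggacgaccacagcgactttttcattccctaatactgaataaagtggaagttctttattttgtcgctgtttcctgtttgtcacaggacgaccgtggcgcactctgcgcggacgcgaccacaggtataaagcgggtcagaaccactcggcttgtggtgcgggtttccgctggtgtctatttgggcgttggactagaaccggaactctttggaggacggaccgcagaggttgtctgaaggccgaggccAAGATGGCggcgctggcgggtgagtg
Ndufs5: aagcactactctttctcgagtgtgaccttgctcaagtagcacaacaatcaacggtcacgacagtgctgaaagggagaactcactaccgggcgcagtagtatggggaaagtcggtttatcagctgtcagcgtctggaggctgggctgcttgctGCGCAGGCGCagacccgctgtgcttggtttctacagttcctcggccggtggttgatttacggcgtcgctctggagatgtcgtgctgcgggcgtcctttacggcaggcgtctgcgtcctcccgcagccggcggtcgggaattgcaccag

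Values are signals on a linear scale, and changes are differences of log2(signal + 32), given as the mean of the female and male difference where both sexes were present. A gene was called under an adjusted p of 0.05 in a limma fit over all 36 arrays. Esr1, whose probe set could also read Mer-Cre-Mer since Mer is a mutant estrogen receptor domain, went against the labels in 5 arrays. It read 688, 2915 and 1327 in the arrays labelled HRas-v12 female early replicate 3, male late replicate 1 and male late replicate 3, where the other 21 transgenic arrays read 12437 to 155949. The late MKK7D controls labelled replicates 8 and 9 read 106402 and 91291. The shared controls read 294 to 7943 and the early MKK7D controls 294 to 7288. These control ranges are wide: they hold the 3 low transgenic readings and end below 12437, the lowest of the other transgenic arrays. In another array the sex-linked genes Xist and Eif2s3y had the male pattern although its label says female, namely replicate 1 of the early MKK7D controls. These 6 are called the arrays in doubt. All 10 cardiomyocyte markers were above the filter, and all skeletal muscle markers were below it.

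Early HRas-v12 hearts held less RNA of nearly all complex I subunits. Of 36 members 32 fell and 0 rose, where 18.7% of the 12626 genes tested were called lower and 15.1% higher, and 35 of 36 had a negative change. The median change was -0.57 on the log2 scale (a signal 32.7% lower), against -0.04 over all genes tested. All 6 core and 24 of 28 accessory subunits fell, and their medians were -0.57 and -0.57. In 13 members every HRas-v12 array lay below every sex-matched control, where 5.96% of all genes did. In bulk tissue, fewer cells of a type and less RNA per cell cannot be told apart.

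**Figure D1:**
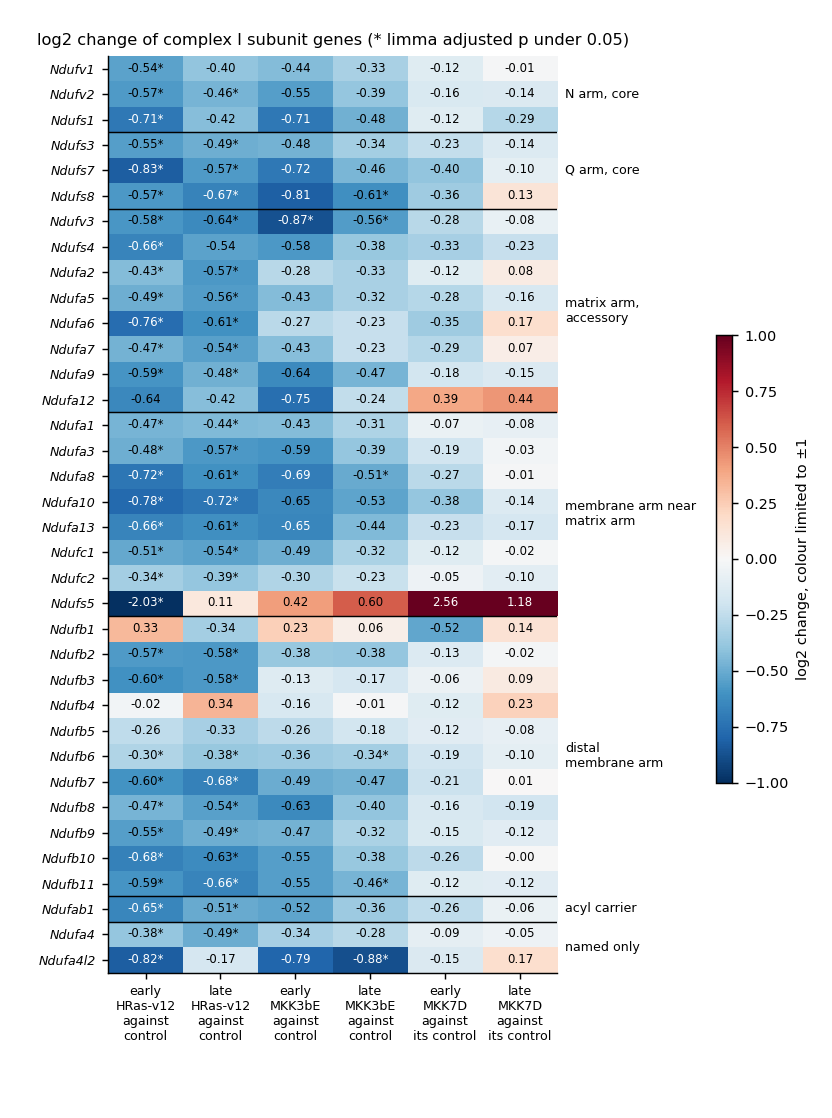
Rows are the 36 members ordered by place in the enzyme, columns are the 6 comparisons of a line and time with its control, and each cell gives the log2 change, with an asterisk where limma's adjusted p was under 0.05. The HRas-v12 columns hold 32 and 27 calls, all of a lower level, the MKK3bE columns 1 and 6, and the MKK7D columns none.

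Among the core subunits, Ndufs7, an iron-sulfur protein next to the ubiquinone site, changed most. Its signals were 55435 and 87590 in HRas-v12 females and 30870, 34932 and 34379 in HRas-v12 males, against 84227 to 96965 in control females and 76603 to 85461 in control males. Every HRas-v12 array but the female one labelled replicate 3 lay below all sex-matched controls. The change was -0.83 ± 0.19 (SE), with an adjusted p of 0.00166. Ndufs1, which carries several iron-sulfur clusters of the NADH-oxidising arm, fell by 0.71 ± 0.17 (SE; adjusted p = 0.00206). Ndufv1, which binds NADH and the flavin, fell by 0.54 ± 0.15 (SE; adjusted p = 0.00577).

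The accessory subunits of the matrix arm followed the core: 7 of 8 fell, with a median of -0.59, and Ndufa6 had the lowest change at -0.76 ± 0.18 (SE; adjusted p = 0.00229). Ndufa12 was the eighth, with a change of -0.64 ± 0.27 (SE; adjusted p = 0.0657). Near the foot of the membrane arm 8 of 8 fell. Ndufa8, which faces the intermembrane space, averaged 42855 ± 2522 in HRas-v12 males and 88560 ± 4971 in control males (SD, n = 3 each), and its change over both sexes was -0.72 ± 0.16 (SE; adjusted p = 0.0016). Of the distal membrane arm 8 of 11 fell, and Ndufb1, Ndufb4 and Ndufb5 did not pass. Ndufb9 had the smallest adjusted p of all members, 0.00137, with a change of -0.55 ± 0.12 (SE). Its signals were 92155 and 126523 in HRas-v12 females and 74401 to 95526 in HRas-v12 males, against 138171 to 149429 in control females and 134886 to 138831 in control males, so that the groups did not overlap.

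The 3 male arrays lay below the 2 female arrays in their median over members. The median over members, set against sex-matched controls, was -0.91, -0.59 and -0.83 in the 3 male arrays, and -0.55 and -0.08 in the female arrays labelled replicates 1 and 3. The second of these females is the array with Esr1 at 688. In males alone 31 members were called lower, where 21.7% of all genes were, and the median was -0.79. In females alone 0 were called, where 0% of all genes were called lower, 5 had an unadjusted p under 0.05 and the median was -0.32. The difference between the sexes called 0 of 36 members (adjusted p at least 0.0925; 10 had an unadjusted p under 0.05), where 1.1% of all genes were called in either direction. Leaving out the female labelled replicate 1 left 7 members called, and leaving out the 6 arrays in doubt left 35, of which 34 were lower, where 22.7% of all genes were, and Ndufb1 higher. Replicate 1 was then the only early HRas-v12 female, and it was assumed to vary like the other groups.

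**Figure D2:**
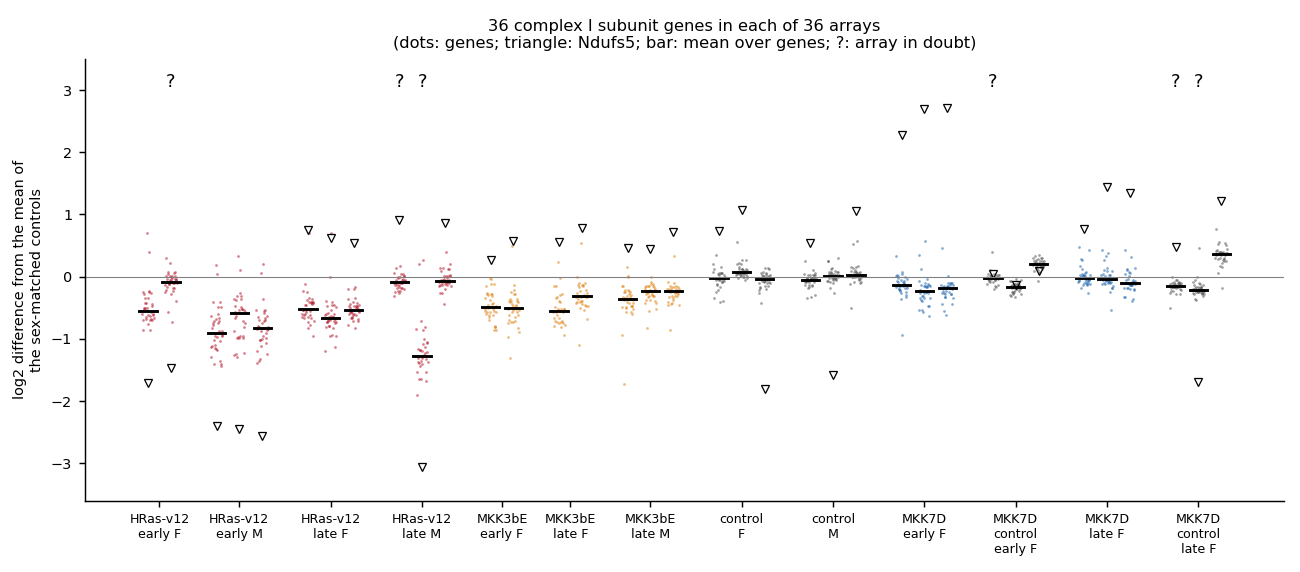
Each column is 1 array, each dot 1 of 35 members, the triangle Ndufs5 and the bar the median over all 36, as a log2 difference from the mean of the sex-matched controls (the line's own controls for MKK7D). The title printed in the figure calls the bar a mean, but the bar is the median. A question mark stands above the 6 arrays in doubt. The bars run from -0.91 to -0.08 in early HRas-v12 and from -1.27 to -0.06 in late HRas-v12, and from -0.05 to 0.07 in the shared controls.

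To find members that depart from the rest, each was also set against the mean of the other members on the same array. In early HRas-v12 7 of 36 departed, where 53.9% of all genes differed from complex I in that fit. Ndufs7 lay lower than the rest, by -0.26 ± 0.08 (SE; adjusted p = 0.0107), and Ndufs5 lower by -1.50 ± 0.49 (SE; adjusted p = 0.0126). Ndufb1, Ndufb5, Ndufb6, Ndufc2 and Ndufa4 lay higher than the rest, by 0.92, 0.33, 0.28, 0.24 and 0.19. The first 4 of these are small accessory proteins of the membrane arm. Leaving out the female labelled replicate 1 left 2 departing members.

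Ndufb1 was the member furthest above the rest. It read 3894 and 2766 in early HRas-v12 females and 3817, 4231 and 3495 in males, against 2056, 2742 and 2384 in control females and 3047, 3440 and 3599 in control males. The females lay above their controls, and the males overlapped theirs. Its own change of 0.33 ± 0.15 (SE) did not pass (adjusted p = 0.091). Ndufb5 had a change of -0.26 ± 0.13 (SE; adjusted p = 0.131). The dim Ndufb4 had one of -0.02 ± 0.26 (SE; adjusted p = 0.956). At the other end, after Ndufs5 and Ndufs7, stood Ndufa4l2 at -0.82 ± 0.22 (SE; adjusted p = 0.00456).

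Ndufs5, an accessory subunit on the intermembrane space side, split the arrays into levels with a gap between them. It read 2193 to 6678 in 12 arrays and 20617 to 41288 in the other 24, a gap of 3.09-fold. The low arrays were all 5 of early HRas-v12, 1 late HRas-v12 male (the array labelled replicate 3), 2 of the 6 shared controls, all 3 early MKK7D controls and 1 late MKK7D control. No MKK3bE or MKK7D transgenic array was low. Early HRas-v12 averaged 4273 ± 1373 (SD, n = 5) and the shared controls 23459 ± 14569 (SD, n = 6), and the change was -2.03 ± 0.58 (SE; adjusted p = 0.00821).

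A second probe set, annotated to both Ndufs5 and the pseudogene Ndufs5-ps, did not split. It read 9811 to 27236 in the 12 low arrays and 17631 to 38891 in the other 24. The ratio of the Ndufs5 probe set to this one was 0.208 to 0.287 in the low arrays and 0.927 to 1.82 in the others, with no value between. The change given for Ndufs5 in each comparison therefore depends on how many low arrays each group holds, and what sets the low level was not tested. Ndufa12 showed a milder spread within groups. Its brightest probe set read 67562, 126521 and 74529 in control females and 114651, 113906 and 68035 in control males. Its second probe set read 61595, 99602 and 66321 in those females and 93419, 93561 and 61570 in those males. A further one read 53513 to 68187 in those 6 arrays. The ratio of the brightest to this further one ran from 0.888 to 2.14 over all arrays, with no gap like that of Ndufs5. It did not follow the Ndufs5 split: control male replicate 2 read 6126 for Ndufs5 and 113906 for Ndufa12.

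**Figure D3:**
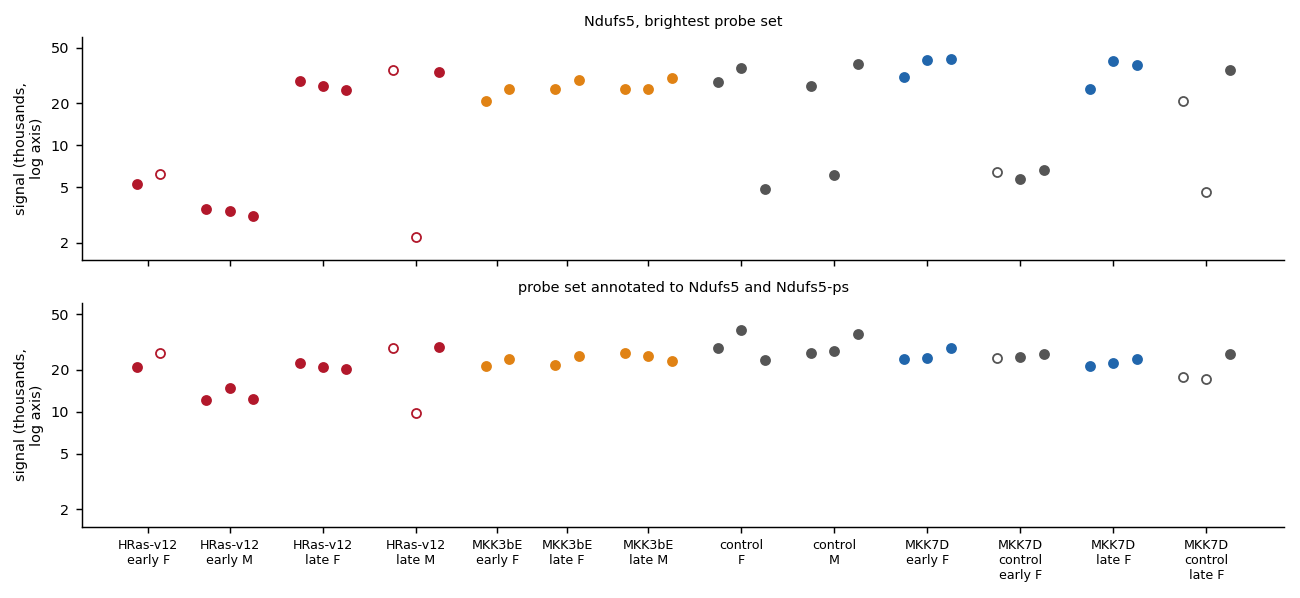
Each point is 1 array, on a log axis of signal, with open points for the arrays in doubt. In the upper panel the Ndufs5 probe set reads 2193 to 6678 in 12 arrays and 20617 to 41288 in 24, and in the lower panel the probe set shared with Ndufs5-ps reads 9811 to 38891 with no such gap.

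Late HRas-v12 hearts again held less RNA of most subunits. Of 36 members 27 fell and 0 rose, where 4.66% of all genes were called lower and 4.86% higher, and 34 had a negative change. The median change was -0.54 (a signal 31.12% lower), against 0.02 over all genes. In 13 members every HRas-v12 array lay below every sex-matched control, where 1.65% of all genes did. Ndufb11, an X-linked subunit of the distal membrane arm, had the smallest adjusted p (0.0129) with a change of -0.66 ± 0.14 (SE), and Ndufa10 the largest fall, -0.72 ± 0.18 (SE; adjusted p = 0.0209). Next were Ndufb7 (-0.68) and Ndufs8 (-0.67), with adjusted p of 0.0143 and 0.018, and at the upper end Ndufa4l2, Ndufs5 and Ndufb4 had -0.17, 0.11 and 0.34 without passing.

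By place in the enzyme, the 3 core subunits next to ubiquinone all fell in late HRas-v12, with a median of -0.57. Of the 3 core subunits of the NADH-oxidising arm 1 fell, Ndufv2, an iron-sulfur protein, by 0.46 ± 0.13 (SE; adjusted p = 0.0297). Ndufs1 and Ndufv1 had changes of -0.42 and -0.40 with adjusted p of 0.0835 and 0.0632. Of the accessory subunits 6 of 8 fell in the matrix arm, 7 of 8 near the foot of the membrane arm and 8 of 11 in the distal membrane arm, with medians of -0.55, -0.56 and -0.54. Ndufs4, a late-joining subunit whose loss is used as a mouse model of Leigh syndrome, was not called at this time (-0.54 ± 0.21, SE; adjusted p = 0.0893) but fell early (-0.66 ± 0.22, SE; adjusted p = 0.0212). Ndufab1 fell at both times, by 0.65 ± 0.17 early and 0.51 ± 0.16 late (SE; adjusted p = 0.00351 and 0.0399).

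The late male arrays differed widely. Ndufa10 read 68290, 25422 and 69509 in HRas-v12 males labelled replicates 1, 3 and 4 and 53847, 36873 and 49179 in HRas-v12 females, against 66816 to 87471 in control males and 70117 to 96843 in control females. All 3 females and 1 of 3 males lay below the controls. Over all members the median was -0.52, -0.67 and -0.53 in the 3 females, and -0.09, -1.27 and -0.06 in males labelled replicates 1, 3 and 4. Of those males, Esr1 was low in replicates 1 and 3 and highest of all arrays in replicate 4, at 155949.

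Without the 6 arrays in doubt 9 members remained called in late HRas-v12, where 0.578% of all genes were called lower, with a median of -0.34. These were Ndufa2, Ndufa8, Ndufb3, Ndufb7, Ndufb9, Ndufb10, Ndufb11, Ndufc1 and Ndufv3. Leaving out the male labelled replicate 3 left 6 called, the female labelled replicate 3 left 4, control female replicate 1 left 14 and control male replicate 1 left 17. The male minus female difference of the changes was called in 0 members over all arrays, with 0 also at an unadjusted p under 0.05, where 0% of all genes were called. Its median was 0.12, with 9 of 36 differences below zero. Without the arrays in doubt its median was 0.54, a smaller lowering in males, and replicate 4 was then the only late male. Fitted on the late HRas-v12 and control arrays alone, 0 members passed, and with quantile normalization 6 did, with a median of -0.30.

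In late HRas-v12 5 of 36 members departed from the rest, where 50.5% of all genes did. Ndufa10, Ndufb7, Ndufb11 and Ndufv3 lay lower, by -0.25, -0.21, -0.19 and -0.16. Ndufb4 lay higher by 0.84 ± 0.31 (SE; adjusted p = 0.0279), but its probe set was dim, with a mean signal of 461 just above the filter of 414.3. It read 375 to 728 in late HRas-v12 and 320 to 721 in the shared controls, which overlapped. Leaving out 1 array left 1 to 7 departing members. It left 1 without HRas-v12 female late replicate 3, control male replicate 2 or control female replicate 4, 2 without HRas-v12 male late replicate 3, and 3 without HRas-v12 female late replicate 2, control female replicate 1 or control males replicates 1 or 5.

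Late against early HRas-v12, with sexes averaged, called 3 of 36 members, where 11.6% of all genes were called in either direction. That count is not above the share of all genes. Ndufs5 was higher late by 2.13 ± 0.58 (SE; adjusted p = 0.0175), with its low level in all early arrays and 1 late array. Ndufa4l2, whose RNA is known to rise in low oxygen, was higher late by 0.66 ± 0.22 (SE; adjusted p = 0.0458). It read 2083 to 3322 in late HRas-v12, 1097 to 2081 in early HRas-v12 and 2214 to 4170 in the shared controls. Ndufb1 was lower late by -0.67 ± 0.15 (SE; adjusted p = 0.0046), with 1787 to 2860 late and 2766 to 4231 early. The median over members was 0.04, and the other 33 members did not pass. Without the arrays in doubt the median was 0.31, so this comparison turns on those arrays. Replicate 1 was then the only early female and replicate 4 the only late male.

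MKK3bE hearts had few members called. Early, 1 of 36 was called, lower, where 2.78% of all genes were called lower and 3.48% higher, so that count is at the share of all genes. That member was Ndufv3, an accessory subunit of the NADH-oxidising arm. It read 60604 and 58985 in MKK3bE females, against 101417, 109405 and 117463 in control females, without overlap. Its change was -0.87 ± 0.25 (SE; adjusted p = 0.0365), and it also lay below the rest of complex I, by -0.42 ± 0.11 (SE; adjusted p = 0.0241), the 1 member of 36 to do so where 4.58% of all genes departed. That departure was lost without any of its arrays but control female replicate 2.

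The other 35 members of early MKK3bE did not pass. Over all 36 the median change was -0.49, against -0.03 over all genes, 34 of 36 were negative and 20 had an unadjusted p under 0.05. Ndufa4l2 followed at -0.79 (adjusted p = 0.134), and the highest values were those of Ndufb3 (-0.13), Ndufb1 (0.23) and Ndufs5 (0.42), none of which passed. The median was -0.72 in the 3 core subunits next to ubiquinone, -0.55 in the 3 of the NADH-oxidising arm, -0.50 in the matrix accessory subunits and -0.38 in the distal membrane arm. In 28 of 36 members both arrays lay below all 3 control females, where 22.6% of all genes did. Ndufs8, a core iron-sulfur protein, read 67346 and 66013 in MKK3bE females, against 112201, 120991 and 118619 in control females, with a change of -0.81 ± 0.26 (SE; adjusted p = 0.0528). The 6 arrays in doubt are not in this comparison and bear on it only through the spread shared by all groups, and without them 24 members were called lower, where 8.47% of all genes were. Leaving out any 1 of its 5 arrays left 0.

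Late MKK3bE had 6 of 36 members called, all lower, where 5.39% of all genes were called lower and 5.06% higher. These were Ndufa4l2 (-0.88 ± 0.22), Ndufs8 (-0.61 ± 0.17), Ndufv3 (-0.56 ± 0.17), Ndufa8 (-0.51 ± 0.16), Ndufb11 (-0.46 ± 0.14) and Ndufb6 (-0.34 ± 0.11, all SE). Ndufv3 read 63394 and 78844 in MKK3bE females and 67406, 67938 and 70662 in males, against 101417 to 117463 in control females and 93378 to 99213 in control males. All 5 arrays lay below all controls. Ndufb4, Ndufb1 and Ndufs5 had the highest changes, -0.01, 0.06 and 0.60, and did not pass. The median over members was -0.35, against -0.01 over all genes, 34 were negative, and in 23 every array lay below every sex-matched control, where 8.16% of all genes did.

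Ndufv3 was the 1 member that departed from complex I in late MKK3bE as well, by -0.23 ± 0.07 (SE; adjusted p = 0.0403), where 9.04% of all genes departed. That departure was lost whichever of the 11 arrays was left out. By array, the median over members was -0.55 and -0.32 in the females and -0.35, -0.24 and -0.24 in the males. Without the 6 arrays in doubt 28 members were called, where 11% of all genes were called lower. Fitted on these groups alone 27 were called, and with 1 array left out 0 to 3. The share of all genes under those fits is not given here, so these last counts are not a result about the members. Late and early MKK3bE were compared in females only, with 2 arrays at each time and without the late males. The times differed in 0 members, with 0 also at an unadjusted p under 0.05, where 0.00792% of all genes were called in either direction.

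**Figure D4:**
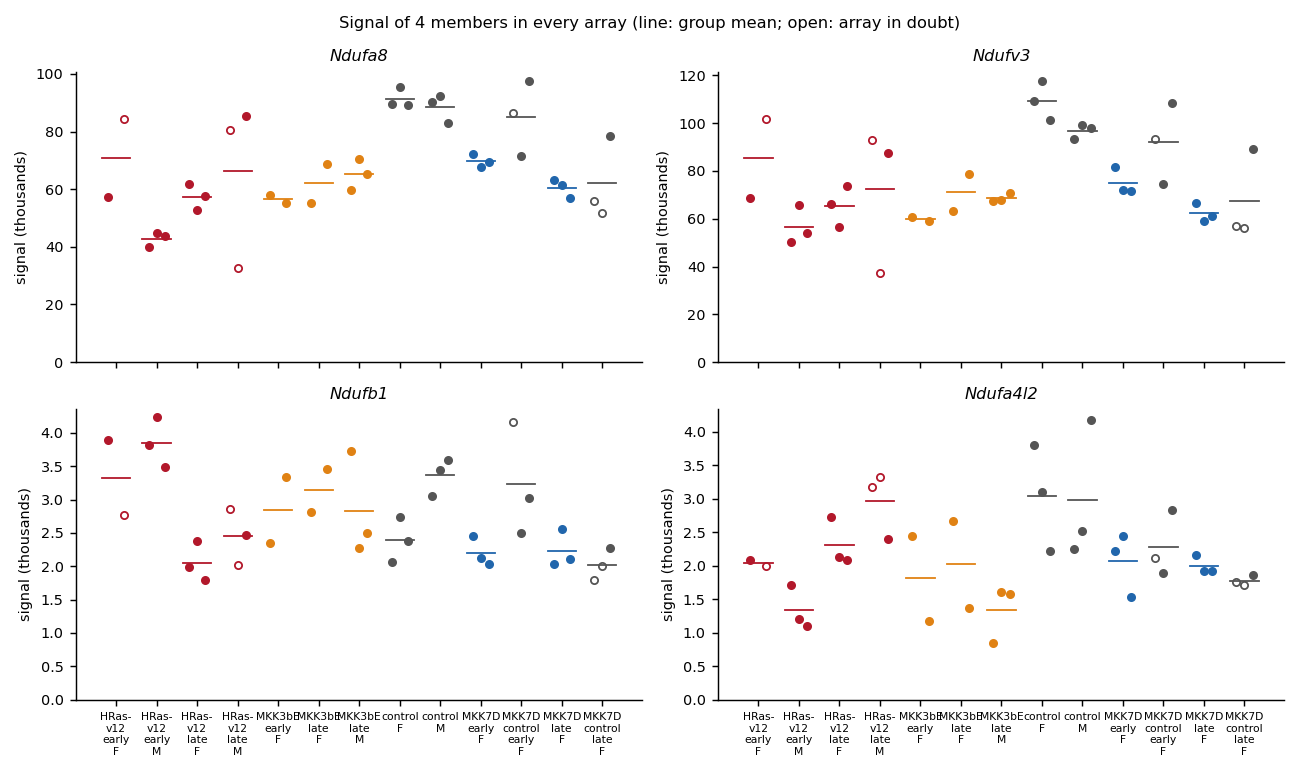
Signal of 4 members in every array, by line, time and sex (F female, M male), with the group mean as a line and open points for the arrays in doubt. Ndufv3 lies at 58985 to 78844 in the 7 MKK3bE arrays, below the shared controls at 93378 to 117463, while Ndufb1 reads 2766 to 4231 in early and 1787 to 2860 in late HRas-v12.

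MKK7D hearts gave no call among the members. Early, the median was -0.17, against 0.00 over all genes, 34 of 36 were negative, 2 had an unadjusted p under 0.05, and 0.0475% of all genes were called lower and 0.0871% higher. Ndufa8 read 72102, 67873 and 69603 in MKK7D females, against 86355, 71350 and 97456 in their controls, which overlapped. In 7 members every array lay below every control, where 12.1% of all genes did, which is near that share. Ndufs5 stood at 30707 to 41288 in MKK7D and 5735 to 6678 in the controls, a change of 2.56 ± 0.77 (SE; adjusted p = 0.154). Ndufa12 and Ndufc2 had 0.39 and -0.05, and the lowest were Ndufb1 (-0.52), Ndufs7 (-0.40) and Ndufa10 (-0.38).

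Late MKK7D had a median of -0.06, against 0.02 over all genes, with 25 of 36 negative and 0 called by limma (0 also at an unadjusted p under 0.05), where 0% of all genes were called lower or higher. In 0 members did every array lie below every control, where 5.53% of all genes did. In neither time did a member depart from the rest of complex I (0 of 36 each), where 0.0158% of all genes did early and 0% late. Its controls were not alike. Ndufa8 read 63093, 61586 and 56903 in MKK7D females, against 55989, 51671 and 78353 in controls labelled replicates 8, 9 and 10. The lowest changes were those of Ndufs1 (-0.29), Ndufs4 (-0.23) and Ndufb8 (-0.19) and the highest those of Ndufb4 (0.23), Ndufa12 (0.44) and Ndufs5 (1.18). The controls with a high Esr1 signal, replicates 8 and 9, had 35 of 36 members below the control mean each, and replicate 10, with Esr1 at 953, had 1. Against the shared female controls the median over members was -0.54, -0.58 and -0.62 in late MKK7D and -0.71, -0.77 and -0.15 in controls 8, 9 and 10.

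With the 6 arrays in doubt left out, replicate 10 was the only late MKK7D control and the median was -0.39. Ndufa5 had -0.68, Ndufs1 -0.64, Ndufs7 -0.61 and Ndufv2 -0.52. These values rest on that lone control array. The late MKK7D controls set against the early ones had a median of -0.35 with 0 members called, 11 at an unadjusted p under 0.05 and 0.0792% of all genes called in either direction. Control males against control females had 0 members called, a median of -0.06, and 1 member at an unadjusted p under 0.05, where 0% of all genes were called. The early MKK7D controls against the shared control females had 0 called, 3 at an unadjusted p under 0.05 and a median of -0.16, where 1.47% of all genes were called. The change in late MKK7D differed from that in early MKK7D in 0 members (1 at an unadjusted p under 0.05), where 0.0158% of all genes did. The late MKK3bE change differed between the sexes in 0 members (1 at an unadjusted p under 0.05), where 0.00792% of all genes did.

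Late HRas-v12 and late MKK3bE did not differ in any member (0 called, 4 at an unadjusted p under 0.05, median -0.17), where 3.95% of all genes were called in either direction. The smallest adjusted p was 0.0592, and without the arrays in doubt the median was 0.05. In females, early HRas-v12 against early MKK3bE had 0 called, 1 at an unadjusted p under 0.05 and a median of 0.21, where 1.81% of all genes were called, and without the arrays in doubt the median was 0.002. A p that misses the threshold does not show that the lines act alike. The HRas-v12 and MKK3bE comparisons share their control arrays.

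Subunits of the other respiratory complexes were also called lower in HRas-v12, where 18.7% of all genes early and 4.66% late were. In early HRas-v12 4 of 4 complex II subunits, 9 of 9 of complex III, 9 of 12 of complex IV and 14 of 15 of ATP synthase fell and 0 rose, with medians of -0.61, -0.54, -0.50 and -0.50. Sdha and Sdhb, which oxidise succinate, fell by 0.68 ± 0.15 and 0.69 ± 0.16 (SE; adjusted p = 0.00122 and 0.0016). Complex I assembly factors, which are not part of the finished enzyme, had 5 of 18 called lower with a median of -0.31, among them Ecsit (-0.86 ± 0.20) and Ndufaf8 (-0.60 ± 0.15, SE). In late HRas-v12 the counts were 1 of 4, 9 of 9, 8 of 12, 13 of 15 and, for assembly factors, 2 of 18.

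In MKK3bE the other complexes were called seldom. Early, 0 of 40 subunits of complexes II to V passed, although their medians were -0.54, -0.49, -0.36 and -0.42, and late, 1 did, Sdhc (-0.42 ± 0.13, SE; adjusted p = 0.0355). Late assembly factors had 3 of 18 called lower, beside 5.39% of all genes: Ndufaf8 (-0.64 ± 0.15), Ndufaf5 (-0.54 ± 0.17) and Nubpl (-0.42 ± 0.13, all SE). In MKK7D 0 of these genes passed at either time.

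**Figure D5:**
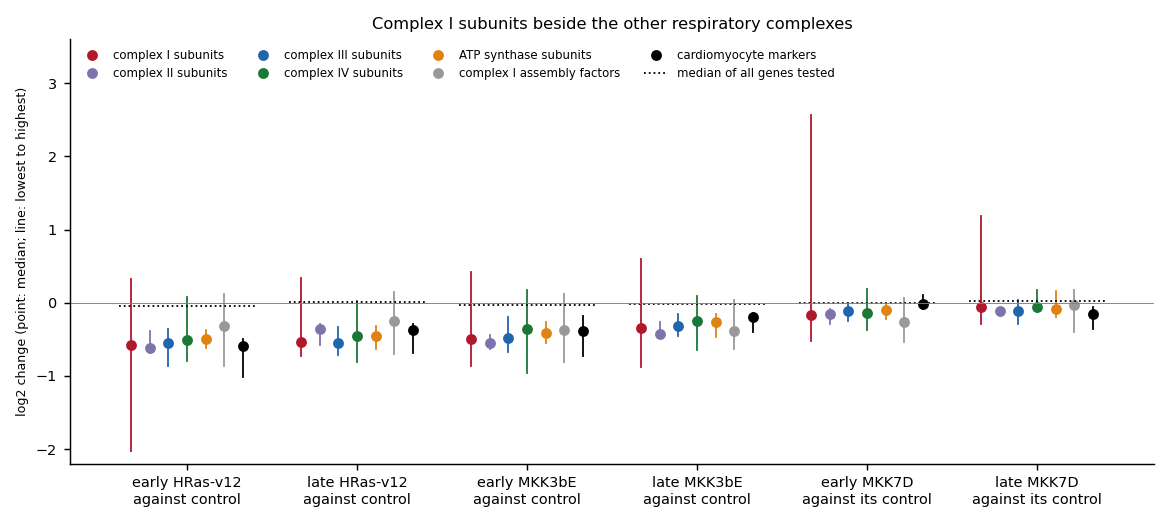
For the 6 comparisons with control, points give the median log2 change of a gene list and lines run from its lowest to its highest member, with the median of all genes tested as a dotted line. Complex I has medians of -0.57, -0.54, -0.49, -0.35, -0.17 and -0.06, and its long upward lines in MKK7D are Ndufs5 at 2.56 and 1.18.

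Transcription factors and coactivators known to act on respiratory genes were called most often in early HRas-v12, where 12 of 19 fell and 1 rose, beside 18.7% of all genes lower and 15.1% higher. Klf15, a factor of heart lipid and amino acid metabolism, fell by 3.02 ± 0.43, Perm1 by 1.28 ± 0.28, the estrogen-related receptors Esrrg by 1.19 ± 0.21 and Esrrb by 1.14 ± 0.19, and Ppara, the receptor of fatty acid oxidation, by 1.14 ± 0.27 (all SE). Klf15 read 73 to 7448 in early HRas-v12 and 4119 to 10794 in the shared controls, which overlapped. Its lowest reading lay under the filter of 414.3, so the size of its fall is uncertain. Hif1a, the oxygen-sensing factor, rose by 1.13 ± 0.24 (SE; adjusted p = 0.00086). In late HRas-v12 1 fell, Ppargc1b (-0.46 ± 0.13), and Hif1a rose by 0.87 ± 0.22, beside 4.66% of all genes lower and 4.86% higher, so these counts are near the share of all genes. Early MKK3bE had Ppara (-1.52 ± 0.41) and Epas1 (-0.75 ± 0.19) lower, and late MKK3bE Esrrg (-0.65 ± 0.21) and Epas1 (-0.52 ± 0.13) lower and Hif1a higher (0.77 ± 0.24, all SE), 2 of 19 lower at each time beside 2.78% of all genes early and 5.39% late. In MKK7D 0 of 19 passed.

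Markers of cell types moved in the same comparisons. All 10 cardiomyocyte markers fell in early HRas-v12 (median -0.59) and 8 of 10 in late HRas-v12 (median -0.38), while 0 passed in MKK3bE (medians -0.38 early and -0.20 late). Their summed signal was 982779 to 1456793 in early HRas-v12, 1046047 to 1570708 in late HRas-v12, 1277349 to 1542151 in early MKK3bE and 1341556 to 1643895 in late MKK3bE, against 1550160 to 2064509 in the shared controls. In early HRas-v12 6 of 10 fibroblast and 7 of 10 macrophage markers rose and 8 of 10 endothelial markers fell. Of all genes tested, 18.7% were called lower and 15.1% higher in early HRas-v12, and 4.66% lower in late HRas-v12. The summed signals of fibroblast, macrophage and endothelial markers were 249427 to 631124, 61308 to 236463 and 38529 to 77030 in early HRas-v12, against 236371 to 309764, 65532 to 95730 and 62889 to 90813 in the shared controls. Fibroblast markers rose in 4 of 10 in late HRas-v12 and in 5 of 10 at each time in MKK3bE. The shares of all genes called higher were 4.86% in late HRas-v12, 3.48% in early MKK3bE and 5.06% in late MKK3bE. The part of these shifts in the lowering of complex I was not tested.

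Set against the mean of the cardiomyocyte markers on the same array, complex I in early HRas-v12 had a median of 0.06, and its sign depended on the setting. In the fit over all arrays 12 of 36 members were negative, 1 member (Ndufs5) was called lower and 6 (Ndufa1, Ndufa4, Ndufb1, Ndufb5, Ndufb6 and Ndufc2) higher, where 2.38% of all genes were lower and 61.3% higher on that measure. With quantile normalization the median was -0.17, with 11 members lower and 2 higher, and in males alone -0.13, with 10 lower and 1 higher. In females alone it was 0.29, with 0 lower and 7 higher, and leaving out female replicate 1 left 2 members called, both higher. In late HRas-v12 the median was -0.12, with Ndufa10, Ndufb7 and Ndufb11 lower and Ndufb4 higher, where 0.372% of all genes were lower and 45.6% higher. Those calls were lost (0 called) without the arrays in doubt, where the median was -0.01, with only the groups compared and in either sex alone. With 1 array left out 0 to 9 were called, 0 without HRas-v12 male late replicate 3 and 9 without male late replicate 4. Early and late MKK3bE had medians of -0.11 and -0.11 and 0 called, where 0.697% and 1.27% of all genes were lower and 5.31% and 5.84% higher. In late MKK3bE 6 members were lower without the arrays in doubt, 4 with only the groups compared, 3 with quantile normalization and 1 with the next brightest probe set, and in early MKK3bE 1 was under each of the first 3 of these. Early and late MKK7D had medians of -0.16 and 0.10 and 0 called, where 0.00792% and 0% of all genes were lower and 0.00792% and 0% higher. This measure was added after the other values were seen. It was first run as an alternative to the change against control and was made a measure of its own after its values were known. Of 92 values of named members in the comparisons with control, 28 had the opposite sign on it, 23 of them in early HRas-v12.

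Of the RNA quality readouts, the 3' to 5' signal ratio of Gapdh was 0.806 to 0.819 in early HRas-v12, 0.788 to 0.812 in late HRas-v12 and 0.792 to 0.899 in MKK3bE, against 0.800 to 0.893 in the shared controls. The same ratio of Actb was 1.167 to 1.490 in early HRas-v12, 1.075 to 1.222 in late HRas-v12, 1.096 to 1.172 in early MKK3bE and 0.977 to 1.182 in late MKK3bE, against 1.150 to 1.525 in the shared controls. Of these arrays, 3 of 6 in late HRas-v12, 1 of 2 in early MKK3bE and 4 of 5 in late MKK3bE lay below every shared control, and the part of this in the changes of complex I was not tested. Of the 36 members, 20 had 39 further probe sets above the filter. These had the same sign as the brightest in 35 of 39 cases in early and 34 in late HRas-v12, 35 in early and 33 in late MKK3bE, 34 in early and 24 in late MKK7D. Their medians in early and late HRas-v12 were -0.61 and -0.56.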

How the data were processed

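Left ventricle RNA in 36 mouse samples was hybridised to Affymetrix Mouse Genome 430 2.0 arrays. Each deposited value is 1 probe set's intensity, not on a log scale. The submitters' processing notes name MAS5, with its version not given in the sources used here, and every array has a mean of 2500 once 2% of probe sets are left off at each end. Genes were named through the platform annotation, updated by gene number to RefSeq of GRCm38.p6. Detection calls were not used, and the number of arrays limits the precision. From these intensity values log2(signal + 32) was computed, probe sets under a mean of 8.802 (about 414.3) were dropped, and 27022 were left. The brightest probe set gave 12626 genes. A model with 13 group means was fitted in limma 3.58.1 under R 4.3.3 (23 residual and 4.61 prior degrees of freedom, intensity trend), with Benjamini-Hochberg adjustment over all genes. There were 17 comparisons. The fit was also run on simulated data with known changes in the early HRas-v12 arrays. Noise there was independent between genes and alike in all groups. That run does not bear on members that move together or on groups that differ in spread. Members, gene lists and tests were chosen with earlier results of these data known. The rule for names took the 3 lowest and 3 highest members of each comparison with control, departing members, called members against the common direction, the core subunits as a group, the 3 largest calls of other comparisons and up to 3 genes per list in HRas-v12; further members and list genes were picked as examples after their values were seen. Alternatives were the added constant, quantile normalization, median centring, no filter, other probe sets, fewer arrays and a replicate block. Values within 1 sex and relative to cardiomyocyte markers were added after seeing the data, the second first as an alternative and then, with its values known, as a separate measure.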

Additional observations from a re-analysis of the deposited data

Results flagged for a closer look

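In late against early HRas-v12 hearts 3 of 36 members differed by a test of the difference between the times itself. Of all genes 11.6% were called in either direction, so that count is not above the share of all genes. Ndufs5 was higher late by 2.13 on the log2 scale, and the change against control was 0.11 ± 0.54 late and -2.03 ± 0.58 early (SE). The call passed with 8 of 11 arrays left out in turn (adjusted p 0.000185 to 0.0963), and it was lost without early female replicate 1, late male replicate 1 or late male replicate 4 of HRas-v12. Ndufb1 was lower late by -0.67, with changes against control of -0.34 ± 0.14 late and 0.33 ± 0.15 early (SE), and passed in 10 of 11 (0.00192 to 0.0764), the exception being without HRas-v12 female early replicate 1. Ndufa4l2 was higher late by 0.66, with -0.17 ± 0.20 late and -0.82 ± 0.22 early (SE), and passed in 2 of 11 (0.0415 to 0.153).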

How the results depend on the processing

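Fitted on only the groups compared, members called numbered 0 in late HRas-v12, 18 in early and 27 in late MKK3bE, 1 in early MKK7D (Ndufs5, higher) and 0 in late against early HRas-v12. Without the 6 arrays in doubt they numbered 9 in late HRas-v12, 24 and 28 in early and late MKK3bE, 1 and 4 in early and late MKK7D and 20 in late against early HRas-v12, and sex differences called 2 early and 6 late. Quantile normalization gave 6 in late HRas-v12 and 2 in the early sex difference. Early MKK3bE had 0 with median centring, 0 with no filter and 2 with the next brightest probe set, and late MKK3bE 3 with no filter. Females alone gave 0, 8 and 0 and males alone 31, 0 and 1 in early HRas-v12, late HRas-v12 and late MKK3bE. The share of all genes called moves with the setting as well. Where that share is not given beside a count of called or departing members, here or in the paragraphs below, the count is not a result about the members.

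Same-number correlations of deviations had a median of -0.01 over 57 pairs, 8 of them above 0.1. Pairs with other numbers had a median of 0 over 198 pairs, 39 of them above 0.1. With so few arrays per group, these values do not exclude a pairing by replicate number. With a replicate block 3 members (Ndufa8, Ndufb9 and Ndufs7) were called in early HRas-v12 and 0 in late HRas-v12, early and late MKK3bE and late against early HRas-v12.

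Departing members numbered 12 (quantile), 11 (without the arrays in doubt), 2 (replicate block), 0 (females) and 15 (males) in early HRas-v12. In late HRas-v12 they numbered 0 (quantile), 2 (no filter), 0 (without the arrays in doubt), 0 (groups compared), 0 (replicate block), 2 (females) and 0 (males). Early MKK3bE had 0 (quantile, no filter and replicate block), 5 (without the arrays in doubt) and 2 (groups compared), and late MKK3bE 0 (quantile, no filter, next probe set, replicate block and each sex), 6 (without the arrays in doubt) and 2 (groups compared). Early MKK7D had 1 (without the arrays in doubt) and 2 (groups compared).

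With 1 array left out, calls ranged from 7 to 34 in early and 4 to 31 in late HRas-v12, 0 to 0 in early and 0 to 3 in late MKK3bE, 0 to 11 in late against early HRas-v12, 0 to 3 in the early sex difference, 0 to 2 in late HRas-v12 against late MKK3bE and 0 to 1 between MKK7D controls. Departing members ranged from 2 to 10, 1 to 7, 0 to 1 and 0 to 0 in early and late HRas-v12 and early and late MKK3bE. The median change kept its sign in every setting tried in HRas-v12, MKK3bE and early MKK7D, and in late MKK7D it was 0.04 with quantile normalization, 0.002 with the next brightest probe set and 0.14 without control replicate 10. Of 95 named pairs of gene and comparison, sign turns were counted only where the pair was called in the main fit or in the alternative. By that count Ndufb8 in late HRas-v12 turned, to 0.19 with its next brightest probe set (mean signal 514). Uncalled pairs turned as well, such as Ndufs5 in late HRas-v12, at 0.11 over all arrays and -0.43 in males alone. Relative to the cardiomyocyte markers, a measure moved out of these alternatives after its values were known, the early HRas-v12 median turned to 0.06 (-0.17 with quantile normalization and -0.13 in males alone) and 28 of 92 named values changed sign. The causes were not tested.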
